A study of Mus musculus with 9 samples.

Results

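Expression of the AP-1 transcription factors was examined in mouse bone marrow (BM)-derived macrophages (Mϕs), covering 4 FOS genes (Fos, Fosb, Fosl1 and Fosl2), 3 JUN genes (Jun, Junb and Jund), Batf, Batf3 and Atf3. These 10 genes were taken, by symbol, from the 53379 gene rows of the deposited RNA-seq table. All 10 were found, and 9 passed the filter for testing, a mean of at least 0.5 FPKM over the 9 libraries. FPKM is the number of sequenced fragments per kilobase of a gene's exons scaled to the total of the library. Fosb lay below that filter, and Fosl1 was only just above it.

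AP-1 is not 1 protein but a set of dimers. FOS proteins cannot pair with each other and bind DNA as partners of a JUN protein, while JUN proteins can also pair among themselves. BATF and BATF3 take the place of FOS beside JUN, lack the activation domain of FOS, and bind joint DNA sites with the interferon regulatory factors IRF4 and IRF8. ATF3 is induced by stress and by Toll-like receptor signals and restrains inflammatory genes in Mϕs. Fos, Fosb, Jun, Junb and Atf3 are classic immediate-early genes, whose transcripts rise within minutes of a stimulus and then decay. A level read after days of culture therefore does not show the first wave after the cytokine was added, and a single time point cannot show whether it is sustained.

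The samples were BM cells of 3 C57BL/6 mice, grown for 3 days in 10 ng/ml M-CSF (CSF-1), the growth factor that turns marrow precursors into Mϕs. For a further 4 days they received M-CSF alone (control), M-CSF with 10 ng/ml IL-4, or M-CSF with 100 ng/ml IL-6, giving 3 libraries per group that carry the numbers of the 3 mice. IL-4, which signals through STAT6, served in the study as the inducer of alternative Mϕ polarization against which IL-6, which signals through STAT3, was set. The study's methods and legends state other doses, and its legends another time, than those of the series record used here. All mice were wild type, and no sorting of the cultured marrow cells is described.

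Several features of the libraries bear on the values below. They held 29988160 to 39909571 fragments, and limma was run on log2(FPKM + 0.1) for 12824 genes, with p-values adjusted by Benjamini and Hochberg. Called genes are those past 2 thresholds, an adjusted p under 0.05 and, in size, 1 or more on the log2 scale. All log2 fold changes are differences on the log2(FPKM + 0.1) scale, on which low genes appear to change less than they do. An exact permutation test of 3 libraries against 3 cannot give a p below 0.1. Of 7 Mϕ markers, Adgre1 and Csf1r included, none was at 0, and the summed level was 16500 to 18800 FPKM in control, 6010 to 7030 in IL-4-treated and 20100 to 21200 in IL-6-treated Mϕs, with 4 of the 7 called lower after IL-4 and 0 called after IL-6. Lyz2 made up most of each sum, at 13790 to 16060 FPKM in control, 4479 to 5734 after IL-4 and 17850 to 18960 after IL-6. Cd68 was lower after IL-6 than in control (934 to 968 against 1311 to 1642 FPKM). Itgam was higher after IL-4 (37.2 to 72.3) and IL-6 (62.3 to 75.05) than in control (33.7 to 36.8). Adgre1, Csf1r, Fcgr1 and Mertk overlapped control after IL-6. Of 7 granulocyte markers, 6 were called lower after IL-4, and all 3 markers of mast cells and basophils were called higher, at a summed level of 26.8 to 44.0 FPKM against 4.65 to 10.7 in control. Of all tested genes, 8.89% were called lower and 5.02% higher after IL-4, and 5.38% were called after IL-6. The 3 T-cell markers summed to at most 1.57 FPKM. In bulk RNA, fewer cells of a type and less RNA per cell cannot be told apart. IL-4 #3 stood apart, with a median-ratio scaling factor of 0.766 where the other libraries had 0.990 to 1.07. Rescaling by these factors moved the median over all tested genes for IL-4 against control from −0.20 to −0.01, and the calls from 644 higher and 1140 lower to 834 higher and 874 lower. The libraries also fell into a pair of sets by transcripts of 14 intestinal secretory genes, 973 to 1266 fragments in the 3 controls and in IL-4 #1, against 3 to 8 in each of the remaining 5. No set holds both control and IL-6 libraries, so that the set and IL-6 treatment cannot be told apart without the IL-4 libraries. When the set enters the model, its term is estimated from IL-4 #1 against IL-4 #2 and #3. A set-adjusted value for IL-4 against control thus rests on IL-4 #1. For IL-6 against control it includes the gap between IL-4 #1 and the other IL-4 libraries, the outlying IL-4 #3 among them. The part of these features in the results was not tested beyond the values given beside them. Socs3, a target of STAT3, checks the treatments, with a mean of 80.4 ± 5.42 FPKM (SD, n = 3) after IL-6 and 2.27 ± 0.653 in control, and Arg1, Retnla and Chil3, targets of STAT6, had log2 fold changes of 10.58, 11.69 and 5.59 after IL-4 (limma adjusted p = 1.95e-06, 1.60e-06 and 2.22e-06).

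The AP-1 genes spanned more than 3 orders of magnitude in control Mϕs. Atf3 was highest at 136 ± 17.0 FPKM (mean ± SD, n = 3), followed by Jun at 44.3 ± 5.06 and Jund at 43.5 ± 6.36, whose ranges overlapped. Junb at 26.9 ± 0.578 and Fos at 15.01 ± 0.874 came next and were apart from their neighbours. Batf at 6.33 ± 1.495, Batf3 at 5.14 ± 0.741 and Fosl2 at 3.96 ± 0.925 followed, each overlapping the next. Fosl1 at 0.260 ± 0.0746 and Fosb at 0.0565 ± 0.0313 were lowest. The order was different in the treated Mϕs. After IL-4, Atf3 was still first at 304 ± 41.5 FPKM, while Batf3 had a mean of 51.4 ± 29.0, above those of Junb and Fos through IL-4 #3 alone. In IL-4 #1 and #2 it was below both genes, and its range overlapped those of Jun, Jund, Junb and Fos. After IL-6, Junb at 67.6 ± 6.88 and Atf3 at 65.2 ± 3.65 overlapped at the top, Fos at 42.5 ± 12.4 stood beside Jun at 42.5 ± 5.99, and Batf3 at 2.95 ± 0.302 was below Fosl2 at 14.97 ± 1.09.

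**Figure D1:**
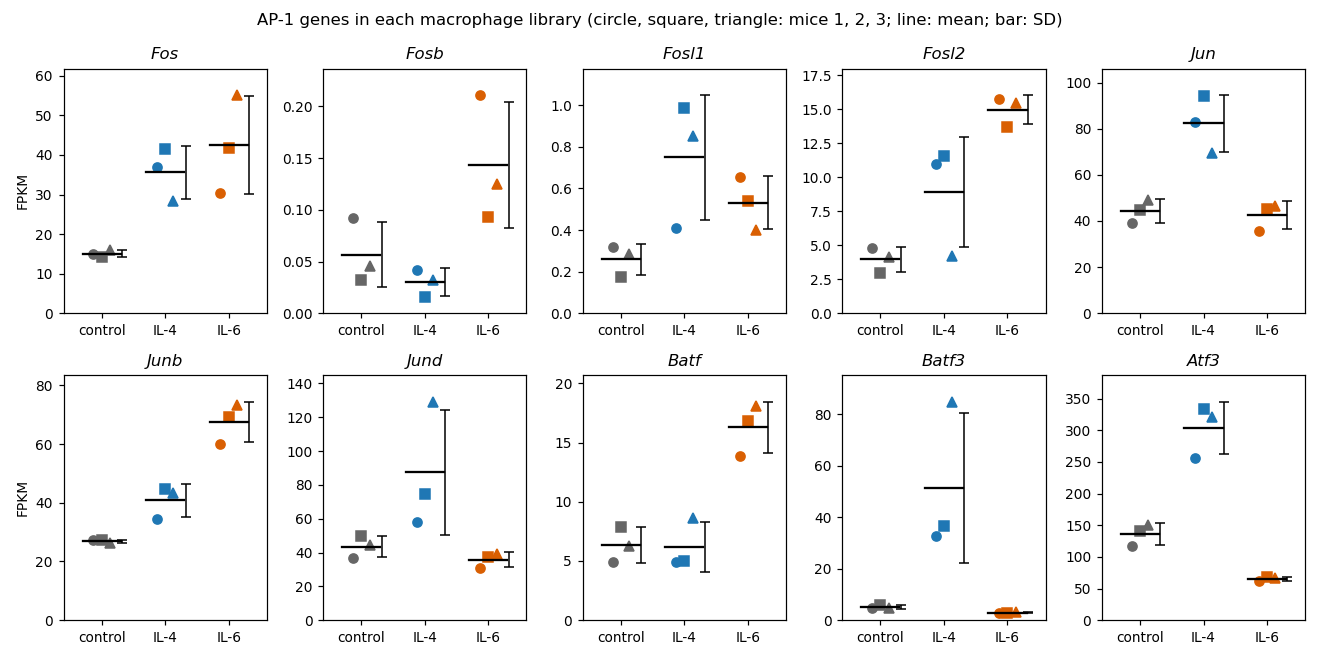
FPKM of each AP-1 gene (y axis, own scale from 0 in each panel) in the 9 libraries, by treatment (x axis); circles, squares and triangles are mice 1, 2 and 3, lines are means and bars SD (n = 3). Batf and Junb are highest after IL-6, Batf3, Jun and Atf3 after IL-4, and Atf3 is below its control range after IL-6.

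Promoter DNA of 6 of the genes is shown, chosen after their values were seen so that different combinations of change stand side by side. Fos was called higher after both cytokines, Junb and Batf after IL-6, and Batf3 after IL-4, Atf3 was called higher after IL-4 and lower after IL-6, and Jun passed the test after IL-4 without reaching the fold threshold. The sequences are from RefSeq on GRCm38.p6, read 5′ to 3′ on the gene's strand. Each of the first 5 ends at the base before the RefSeq start, and the Batf3 stretch ends 121 bases before it. The RefSeq starts are not always those of the GENCODE gene coordinates given with the values, in which the Atf3 and Batf3 stretches lie inside their genes and the Batf stretch reaches into its gene. The Junb stretch ends some bases upstream of its GENCODE gene. Distances below are from the RefSeq starts. Capitals mark TGACG, the core of the cAMP response element that AP-1 and ATF dimers bind, on either strand, TGACATCA, TATAAA and TTCNNNGAA, the palindrome that STAT factors bind.

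Fos, chr12:85473760-85473889, + strand: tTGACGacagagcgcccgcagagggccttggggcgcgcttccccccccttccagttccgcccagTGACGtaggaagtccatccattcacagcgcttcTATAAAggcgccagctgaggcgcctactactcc
Junb, chr8:84978749-84978878, − strand: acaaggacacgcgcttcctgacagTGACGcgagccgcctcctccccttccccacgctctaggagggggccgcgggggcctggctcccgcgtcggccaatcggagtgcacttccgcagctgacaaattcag
Batf, chr12:85686590-85686719, + strand: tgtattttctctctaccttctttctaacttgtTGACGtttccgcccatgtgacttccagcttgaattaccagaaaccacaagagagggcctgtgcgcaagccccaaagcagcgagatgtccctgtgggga
Jun, chr4:95052223-95052352, − strand: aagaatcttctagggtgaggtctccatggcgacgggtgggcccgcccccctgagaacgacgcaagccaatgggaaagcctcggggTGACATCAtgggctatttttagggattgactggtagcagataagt
Atf3, chr1:191183334-191183463, − strand: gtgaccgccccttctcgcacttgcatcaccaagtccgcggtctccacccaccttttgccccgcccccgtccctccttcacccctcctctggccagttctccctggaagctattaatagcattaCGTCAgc
Batf3, chr1:191098164-191098293, + strand: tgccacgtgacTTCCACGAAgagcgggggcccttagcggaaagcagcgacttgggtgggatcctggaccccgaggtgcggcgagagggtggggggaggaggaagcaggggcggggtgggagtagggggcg

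Over the window from 250 bases before the start to 50 after it, 9 of the 10 genes had a sequence, Fosl1 being the exception, and 8 motifs were searched on both strands. TGACG was found in 5 of the 9 promoters, those of Fos, Fosb, Junb, Batf and Atf3, and in 20.8% of 32851 promoters. In Fos it lies 66 bases before the start, with a second copy at 129, in Junb 106 and in Batf 98 bases before, and in Atf3 on the other strand 7 bases before. TGACATCA, a variant of the AP-1 site known from the Jun promoter, was found in Jun alone, 45 bases before the start, and in 3.62% of all promoters. TTCNNNGAA was found in Batf3 alone, 239 bases before, and in 8.30% of all, and TATAAA in Fos and Junb and in 13.6%. TATAAA lies 33 bases before the start in Fos, and at the RefSeq start itself in Junb, outside the stretch shown. The canonical AP-1 site TGACTCA (5.20% of all), the full element TGACGTCA (1.79%), which contains TGACG, the STAT palindrome with 1 more base of spacing (6.95%) and the CArG box of serum response factor (1.63%) were found in none of the 9. A match is a run of letters and not a measured binding site. Sites outside this window were not searched, so a motif found in none of the 9 may still lie further upstream of a gene.

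Against control, 4 of the 9 tested AP-1 genes were called after IL-4, all higher, where 13.9% of all tested genes were called and 5.02% were called higher. Of these 4, Fosl1 had a control mean of 0.260 FPKM and passed the filter of 0.5 only through its treated libraries. Its means were 0.7495 after IL-4 and 0.531 after IL-6. Without the filter its call was lost (limma adjusted p = 0.0700), and 3 AP-1 genes were called after IL-4. After IL-6, 5 of the 9 were called, 4 higher and Atf3 lower, against 5.38% of all genes, 3.49% higher and 1.89% lower. Between the treatments, 4 of the 9 were called, Batf higher after IL-6 and Jund, Batf3 and Atf3 lower, against 20.4% of all genes, 13.6% higher and 6.82% lower. The median log2 fold change of the 9 genes was 1.05 after IL-4, 0.81 after IL-6 and −0.38 for IL-6 against IL-4, beside −0.20, 0.00 and 0.22 over all tested genes. In the single libraries, 7 of the 10 genes had no overlap between IL-4 and control, 8 between IL-6 and control and 8 between IL-6 and IL-4, where 40.3%, 43.2% and 56.9% of tested genes had none. By the adjusted p alone, 7, 5 and 6 of the 9 passed, where 24.8%, 8.4% and 34.1% of all genes did. The IL-4 and IL-6 comparisons share the 3 control libraries.

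**Figure D2:**
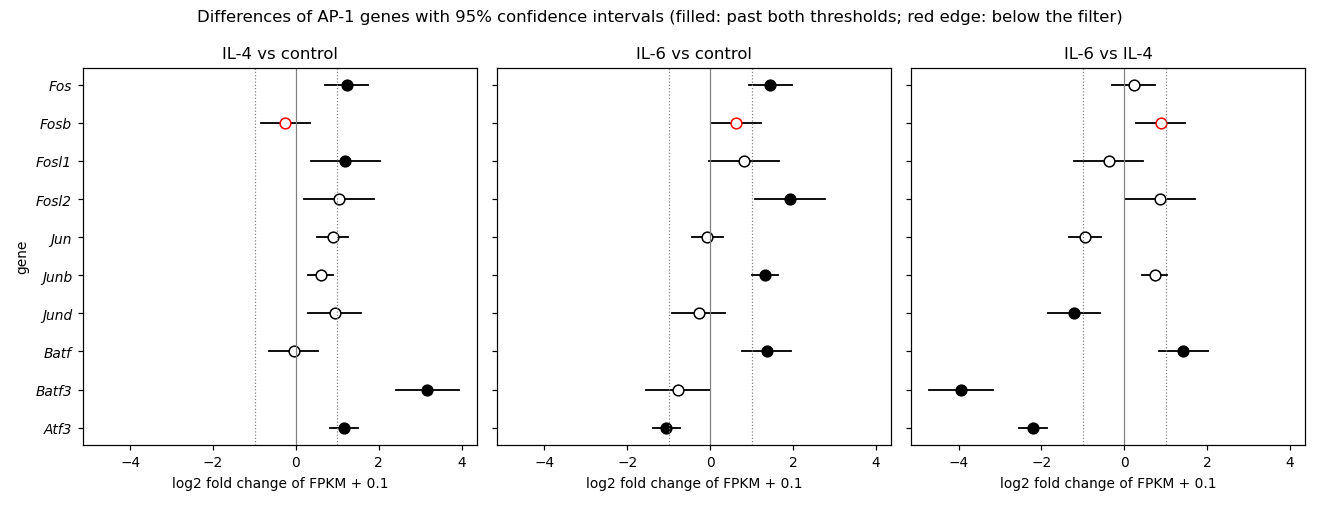
Log2 fold change of each AP-1 gene (x axis, on the log2(FPKM + 0.1) scale) with its 95% confidence interval from the limma fit, for the 3 comparisons; filled points passed both thresholds, dotted lines mark a log2 fold change of 1 in size and the red edge marks Fosb, below the filter. Batf3 and Atf3 lie on the right after IL-4 and on the left for IL-6 against IL-4, where the Batf3 value is −3.94.

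Among the FOS genes, Fos (chr12:85473890-85477273, + strand) rose with both cytokines. Its FPKM was 14.97, 14.2 and 15.9 in control, 36.9, 41.6 and 28.4 after IL-4 and 30.4, 41.9 and 55.2 after IL-6. Every treated library was above every control library, and the treated groups overlapped each other. The mean rose 2.37-fold after IL-4 (log2 fold change 1.22, standard error 0.227, limma adjusted p = 0.00577) and 2.83-fold after IL-6 (1.45, standard error 0.227, limma adjusted p = 0.00663). Between the treatments the log2 difference of 0.23 had a 95% confidence interval from −0.29 to 0.75 (limma adjusted p = 0.436). Within the set of libraries that holds the controls, IL-4 #1 was 2.46 times the control mean. When the library set entered the model the log2 fold changes were 1.29 and 1.56, and neither passed (limma adjusted p = 0.0534 and 0.144).

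Fosl2 (Fra-2; chr5:32135801-32157842, + strand), a FOS protein without the strong activation domain of FOS itself, rose after IL-6. It had 4.797, 2.97 and 4.11 FPKM in control, 10.98, 11.5 and 4.24 after IL-4 and 15.7, 13.7 and 15.5 after IL-6. The IL-6 libraries were close together and above all others, while IL-4 #3 lay within the control range and the other IL-4 libraries well above it. The IL-6 mean was 3.78 times control (log2 fold change 1.92, standard error 0.368, limma adjusted p = 0.0168). Adjusting for the library set gave 2.56 (limma adjusted p = 0.121), and leaving out single libraries gave 1.73 to 2.07 with adjusted p between 0.000218 and 0.0729. The call was lost without control #2, control #3 or any 1 of the IL-6 libraries (limma adjusted p = 0.0604 to 0.0729). The lowest adjusted p was that without IL-4 #3. The IL-4 difference of 1.05 did not pass (standard error 0.368, limma adjusted p = 0.0729). It was 1.51 without IL-4 #3 (limma adjusted p = 0.000547), and it also passed after median-ratio rescaling (1.24, adjusted p = 0.0162), quantile normalization (1.24, adjusted p = 0.0105) and removal of length and GC trends (1.42, adjusted p = 0.000348). Every mouse had more Fosl2 after IL-4 than without, by 1.03 to 3.89 times, and after IL-6, by 3.28 to 4.63 times.

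Fosl1 (Fra-1; chr19:5447547-5455946, + strand) and Fosb were scarce. Fosl1 rested on 9 to 58 fragments per library, with 0.319, 0.176 and 0.284 FPKM in control, 0.411, 0.986 and 0.851 after IL-4 and 0.655, 0.538 and 0.401 after IL-6. Its IL-4 call was marginal (log2 fold change 1.19, standard error 0.365, limma adjusted p = 0.0451). Adjusted for the library set the value was 0.53 (limma adjusted p = 0.535). The call was also lost without the filter (adjusted p = 0.0700), with a pseudocount of 1 (0.46) or 0.01 (adjusted p = 0.0506), with the compared groups alone (adjusted p = 0.111), with the mouse number as a block (adjusted p = 0.0856), on recovered fragments with limma voom (1.43, adjusted p = 0.0505) and when any single library other than IL-4 #1 was left out. The IL-6 value was 0.81 (limma adjusted p = 0.250). In the GENCODE M21 annotation 1163 exon bases of Fosl1 lie opposite Ccdc85b, which had a mean of 23.3 FPKM, and the setting used for strand in counting is not given in the sources used here. Fosb had 0.0918, 0.0321 and 0.0457 FPKM in control, 0.0422, 0.0159 and 0.0321 after IL-4 and 0.211, 0.0932 and 0.125 after IL-6, from 3 to 46 fragments. The IL-6 libraries were above all others, but in the fit without the filter the log2 fold change of 0.63 against control had a limma adjusted p of 0.311, and that of 0.88 against IL-4 one of 0.0578. Fos made up 64.7 to 84.7% of the summed FPKM of the 4 FOS genes in every library. The sum was 17.3 to 20.4 FPKM in control, 33.5 to 54.1 after IL-4 and 46.9 to 71.2 after IL-6.

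Among the JUN genes, each had a different pattern over the 3 groups. Jun (chr4:95049034-95052222, − strand), the strongest activator of the family, had 39.0, 44.9 and 49.0 FPKM in control, 83.0, 94.3 and 69.5 after IL-4 and 35.6, 45.1 and 46.6 after IL-6. All IL-4 libraries were above all others, while control and IL-6 overlapped. The IL-4 mean was 1.86 times control, a log2 fold change of 0.89 (standard error 0.164, limma adjusted p = 0.00565) that passed the test but not the fold threshold. It passed both after median-ratio rescaling (1.08), after removal of length and GC trends (1.04) and without IL-4 #3 (1.00). It was 0.91 once the library set was in the model (limma adjusted p = 0.0580). The IL-6 value was −0.06, with a 95% confidence interval from −0.44 to 0.31. The antisense gene Junos, which shares 232 exon bases with Jun on the other strand, had a mean of 0.712 FPKM.

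Junb (chr8:84974484-84978718, − strand), which is transcribed in response to IL-6 in several cell types, rose after IL-6. It had 27.1, 27.3 and 26.2 FPKM in control, 34.5, 44.7 and 43.4 after IL-4 and 60.0, 69.4 and 73.4 after IL-6. The 3 groups did not overlap and stood in that order. The IL-6 mean was 2.51 times control (log2 fold change 1.32, standard error 0.134, limma adjusted p = 0.000777), and the IL-4 mean 1.52 times (0.59, limma adjusted p = 0.0131). IL-6 exceeded IL-4 by 0.73 on the log2 scale (limma adjusted p = 0.00394), and by 1.53 times in FPKM over IL-4 #2 and #3, the IL-4 libraries of the same set. Adjusting for the library set gave 0.97 for IL-6 against control (limma adjusted p = 0.0688) and 0.36 for IL-4 against control (adjusted p = 0.211), neither of which passed. Every mouse had more Junb after IL-6, by 2.21 to 2.80 times. Of the Junb exons, 173 bases lie opposite Prdx2, which had a mean of 59.4 FPKM.

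Jund (chr8:70698949-70700616, + strand), the JUN gene that most cells express without a stimulus, had 36.9, 49.6 and 44.2 FPKM in control, 58.2, 74.9 and 129 after IL-4 and 30.9, 37.3 and 39.2 after IL-6. The IL-4 libraries were above all others and IL-4 #3 was far above the other 2 libraries of its group. Against control the IL-4 value of 0.93 passed the test but not the fold threshold (standard error 0.276, limma adjusted p = 0.0406), and without IL-4 #3 it was 0.61 (adjusted p = 0.0228). Adjusted for the library set it was 0.43 (limma adjusted p = 0.508), and the test was also missed without the filter (adjusted p = 0.0793), after median-ratio rescaling (1.131, adjusted p = 0.0518), with the compared groups alone (adjusted p = 0.107) and when any single library other than IL-4 #1 or IL-4 #3 was left out. It was called lower after IL-6 than after IL-4 (−1.21, standard error 0.276, limma adjusted p = 0.0112), and without IL-4 #3 this value was −0.89 (adjusted p = 0.00381), short of the fold threshold. Against control the IL-6 value was −0.28 (limma adjusted p = 0.636), or −1.03 adjusted for the library set (adjusted p = 0.248), and no mouse had more Jund after IL-6 than in control.

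The make-up of the JUN transcripts differed accordingly. Junb was 21.9 to 26.4% of the summed JUN FPKM in control, 17.9 to 20.9% after IL-4 and 45.7 to 47.4% after IL-6, and these ranges did not overlap. Jun was 36.9 to 41.1% in control, 28.7 to 47.2% after IL-4 and 28.2 to 29.7% after IL-6. The sum itself was 103 to 122 FPKM in control, 176 to 242 after IL-4 and 126 to 159 after IL-6, so the JUN pool was largest after IL-4 and had its highest Junb share after IL-6.

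Batf (chr12:85686669-85709087, + strand) and Batf3 (chr1:191097847-191108945, + strand), close relatives that can stand in for each other in lymphoid and dendritic cells, moved apart. Batf had 4.89, 7.87 and 6.22 FPKM in control, 4.95, 5.00 and 8.59 after IL-4 and 13.9, 16.8 and 18.1 after IL-6. All IL-6 libraries were above all others, and IL-4 overlapped control. The IL-6 mean was 2.57 times control (log2 fold change 1.37, standard error 0.258, limma adjusted p = 0.0154) and 2.63 times IL-4 (1.42, standard error 0.258, limma adjusted p = 0.00395). The value for IL-4 against control was −0.06, with a 95% confidence interval from −0.65 to 0.54. Adjusted for the library set, Batf exceeded control by 0.97 after IL-6 (limma adjusted p = 0.280), and within the set that holds IL-6, the IL-6 mean was 2.396 times that of IL-4 #2 and #3. Without control #1, control #3, IL-6 #2 or IL-6 #3 the value against control was 1.197 to 1.37 and its adjusted p 0.0563 to 0.0738.

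Batf3 had the largest difference of the 10 genes. It had 4.90, 5.97 and 4.55 FPKM in control, 32.8, 36.6 and 84.9 after IL-4 and 2.69, 2.88 and 3.28 after IL-6. The 3 groups did not overlap, and IL-4 #3 was more than 2 times the other IL-4 libraries. The IL-4 mean was 10.0 times control (log2 fold change 3.17, standard error 0.332, limma adjusted p = 0.000326) and IL-4 #1, in the set of the controls, 6.38 times. Without IL-4 #3 the log2 fold change was 2.74 (limma adjusted p = 8.79e-06), and adjusted for the library set 2.66 (adjusted p = 0.00778). The value for IL-6 against IL-4 was −3.94 (standard error 0.332, limma adjusted p = 6.64e-05), where the lowest library had 150 fragments, and the mean of IL-4 #2 and #3 was 20.6 times that of IL-6. Against control the IL-6 value of −0.78 did not pass (standard error 0.332, limma adjusted p = 0.227), although each mouse had less Batf3 after IL-6, at 0.482 to 0.721 of control. It was −1.54 adjusted for the library set (limma adjusted p = 0.214), and the value of −0.78 passed the test, though not the fold threshold, in a fit of the control and IL-6 groups alone (adjusted p = 0.0102) and when IL-4 #3 was left out (adjusted p = 0.00405). Batf3 is best known from cross-presenting dendritic cells, and of the 5 dendritic cell markers none was at 0. Their summed level was 1.94 to 2.87 FPKM in control, 2.35 to 2.55 after IL-4 and 2.33 to 4.38 after IL-6, with Xcr1 at no more than 0.0967 FPKM in any library. Zbtb46, at 0.0737 to 0.465 FPKM and so below the filter, was called higher after IL-4 in the fit without the filter. Batf was 49.96 to 57.8% of the summed BATF FPKM in control, 9.19 to 13.1% after IL-4 and 83.8 to 85.4% after IL-6.

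**Figure D3:**
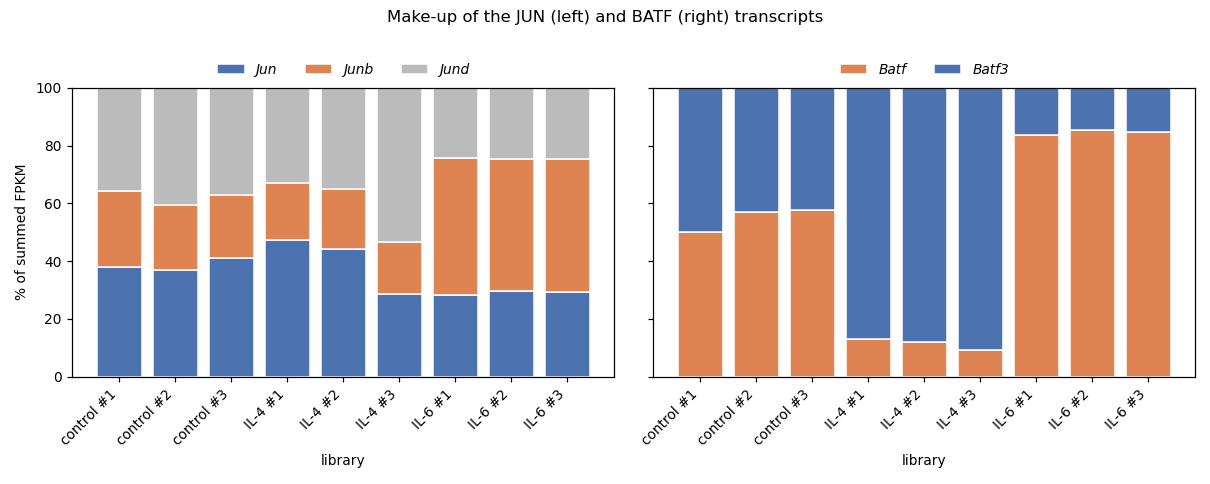
Share of each gene in the summed FPKM of the JUN genes (left) and of Batf and Batf3 (right), in % (y axis), for each of the 9 libraries (x axis). Junb holds 45.7 to 47.4% of the JUN sum after IL-6 and at most 26.4% elsewhere, and Batf3 holds 86.9 to 90.8% of the BATF sum after IL-4.

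Atf3 (chr1:191170296-191218039, − strand) was the only AP-1 gene called in all 3 comparisons. Its FPKM was 117, 141 and 150 in control, 256, 334 and 320 after IL-4 and 61.2, 68.3 and 66.0 after IL-6. The 3 groups did not overlap. The mean rose 2.23-fold after IL-4 (log2 fold change 1.15, standard error 0.147, limma adjusted p = 0.000801) and after IL-6 it was 0.478 of control (−1.06, standard error 0.147, limma adjusted p = 0.00372). IL-4 exceeded IL-6 by 4.66 times (limma adjusted p = 1.70e-05), and over IL-4 #2 and #3 alone by 5.02 times. The direction was the same in each mouse, at 2.13 to 2.36 times control after IL-4 and 0.439 to 0.521 after IL-6. The values lay close to the fold threshold, so that the IL-4 value was 0.90 after quantile normalization and 0.92 adjusted for the library set (limma adjusted p = 0.00200 and 0.0179), and the IL-6 value was −0.997 after removal of length and GC trends and −0.98 without control #3 (adjusted p = 0.000806 and 0.0260). The IL-6 value adjusted for the library set was −1.41 (limma adjusted p = 0.0371), the only AP-1 call against control after IL-6 in that fit. Atf3 made up 46.9 to 49.9% of the summed FPKM of all 10 genes in control, 46.5 to 51.9% after IL-4 and 20.8 to 24.3% after IL-6, while that sum was 250 to 301, 518 to 689 and 251 to 318 FPKM.

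**Figure D4:**
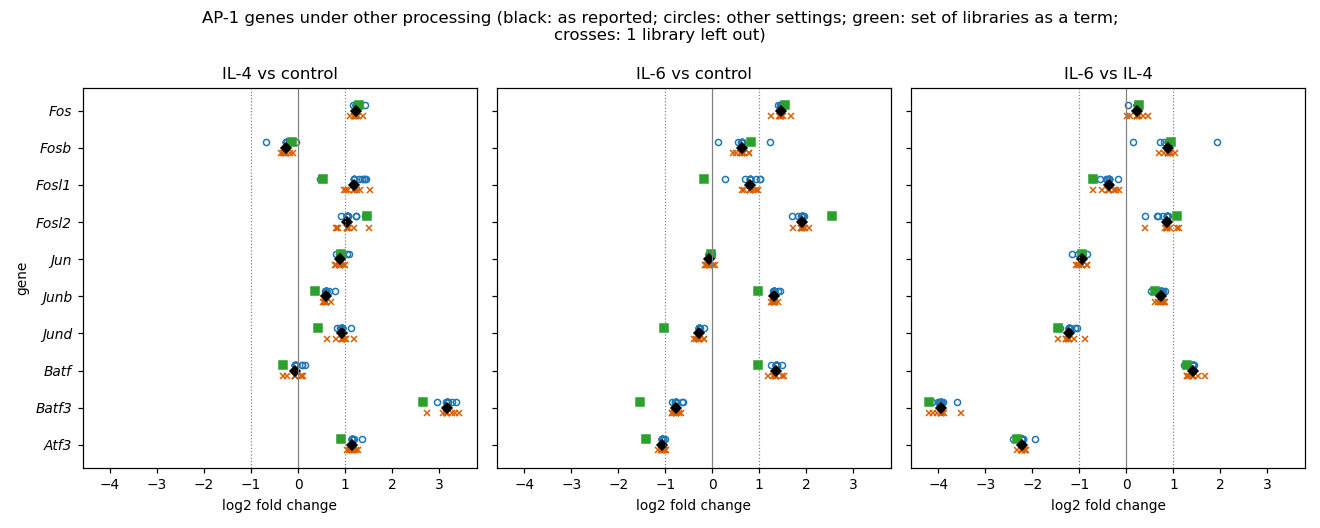
Log2 fold change of each AP-1 gene (x axis) in the 3 comparisons as reported (black), under up to 12 other settings (circles), adjusted for the library set (green squares) and with 1 library left out (crosses). Batf3 for IL-6 against IL-4 stays between −4.20 and −3.51, while Fosl1 after IL-6 runs from −0.18 adjusted for the library set to 1.02.

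The genes whose profiles over the 9 libraries were most like those of the 3 most variable members were found from the root mean square difference of centred log2 values. For Batf3 they were Wwc1 (0.31), Kcnn4 (0.32) and Matk (0.33). Wwc1 encodes the Hippo pathway scaffold KIBRA, Kcnn4 a calcium-activated potassium channel and Matk a kinase related to CSK. Wwc1 was at 0.00617 to 0.0404 FPKM in the control and IL-6 libraries and passed the filter through IL-4 alone, so that its profile outside IL-4 is set by the pseudocount of 0.1 and its place is not a measured likeness. For Atf3 they were Arhgap25 (0.15), a GTPase-activating protein for RAC, Plk2 (0.15), a polo-like kinase that is itself an immediate-early gene, and Ttc27 (0.20). For Fosl2 they were Ptgfrn (0.21), a membrane protein of the immunoglobulin family, Gda (0.24), guanine deaminase, and Ust (0.26), a sulfotransferase of glycosaminoglycans. Plk2 had 26.7 ± 3.81 FPKM in control, 65.2 ± 6.39 after IL-4 and 13.4 ± 0.586 after IL-6 (SD, n = 3). The members and these genes were compared on the same libraries, so that shared scaling and shared outlying libraries add to the likeness.

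The genes around AP-1 were counted on 6 lists with 98 genes, of which 91 passed the filter. After IL-4, 11 of the 91 were called higher and 18 lower, after IL-6 12 higher and 3 lower, and for IL-6 against IL-4 27 higher and 12 lower. The median log2 fold changes were −0.29, 0.22 and 0.56, beside −0.20, 0.00 and 0.22 over all tested genes. The calls came to 29, 15 and 39 of 91, where 13.9%, 5.38% and 20.4% of all genes were called, and most of those after IL-6 were on the lists of immediate-early and AP-1 target genes. Of the calls against control described below, those of Irf8, Atf4, Maff and Map3k8 after IL-4 and of Maff, Mapk11, Egr1, Egr2, Nr4a1, Nr4a2 and Plau after IL-6 were lost when the library set entered the model.

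The IRF partners of BATF moved in opposite directions after IL-4. Irf4, which with BATF binds joint AP-1 and IRF sites, had 2.21, 1.59 and 1.83 FPKM in control, 19.8, 16.2 and 8.15 after IL-4 and 1.37, 1.74 and 1.44 after IL-6. It rose 7.85-fold after IL-4 (log2 fold change 2.83, standard error 0.313, limma adjusted p = 0.000426), and its IL-6 libraries overlapped control. Irf8, which keeps Mϕ and dendritic cell genes active, fell by 1.25 on the log2 scale after IL-4 (43.3 ± 0.469 to 18.4 ± 3.99 FPKM, limma adjusted p = 0.000837), and had a value of −0.31 after IL-6 (adjusted p = 0.323). The rise of Batf3 after IL-4 came with a rise of Irf4 and a fall of Irf8 in the group means, while that of Batf after IL-6 came with a call for neither. Among the IL-4 libraries, IL-4 #3 had the most Batf3 (84.9 FPKM) and the least Irf4 (8.15 FPKM).

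Of the 16 other bZIP proteins, which pair with or compete against AP-1, all passed the filter, and 3 were called after IL-4, 1 after IL-6 and 4 between the treatments, close to the 13.9%, 5.38% and 20.4% of all genes. Maf, a large MAF protein that drives resident Mϕ genes, had 68.0, 43.2 and 48.7 FPKM in control, 6.91, 4.62 and 1.84 after IL-4 and 58.4, 52.3 and 58.6 after IL-6. It fell by 3.71 on the log2 scale after IL-4 (limma adjusted p = 0.000468). Atf4, the stress response factor, rose after IL-4 (89.0 ± 12.3 to 227 ± 84.1 FPKM, 1.28, limma adjusted p = 0.00926). Maff, a small MAF protein without an activation domain, rose after IL-4 (1.05, limma adjusted p = 0.00468) and after IL-6 (1.42, adjusted p = 0.00312). Nfe2l2 (NRF2), the regulator of antioxidant genes, was called higher after IL-6 than after IL-4 (1.43, limma adjusted p = 0.00328).

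Upstream of AP-1, the MAP kinase transcripts that were called fell after IL-4. Of 24 tested, 5 were called lower and 0 higher after IL-4, where 8.89% of all genes were called lower. After IL-6, 1 of the 24 was called, where 5.38% of all genes were, and 9 were called higher after IL-6 than after IL-4, where 13.6% of all genes were. Mapk11 (p38 beta) fell from 0.886 ± 0.103 FPKM to 0.200 ± 0.0600 after IL-4 (−1.73, limma adjusted p = 0.00103) and rose to 2.80 ± 0.381 after IL-6 (1.55, adjusted p = 0.00492). Map3k8 (TPL2), which couples Toll-like receptors to ERK, fell by 1.43 after IL-4 (limma adjusted p = 0.0162), and Mapk13 (p38 delta) was higher after IL-6 than after IL-4 by 1.98 (adjusted p = 0.00257). A kinase acts through its phosphorylation, which these data do not measure. Of 9 genes on the list named SRF and MEF2 activators, only Elk3 was called after IL-4, where 13.9% of all genes were. It was lower (−1.27, limma adjusted p = 0.000939), as were 8.89% of all genes. Whether the genes of this list activate or repress Fos and Jun in these cells was not tested. None was called after IL-6 against control in the limma test, where 5.38% of all genes were. Elk3 and Mef2d were called higher after IL-6 than after IL-4 (1.81 and 1.122, adjusted p = 0.000100 and 0.0182), where 13.6% of all genes were.

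The other immediate-early genes did not move as 1 group. Of 17 tested, 3 were called higher and 2 lower after IL-4, where 5.02% and 8.89% of all genes were, and 4 higher and 1 lower after IL-6, where 3.49% and 1.89% were. Egr2 had the pattern of Atf3, with 7.30 ± 0.898 FPKM in control, 46.3 ± 12.6 after IL-4 (2.61, limma adjusted p = 0.000105) and 3.44 ± 0.358 after IL-6 (−1.06, adjusted p = 0.0218). Nr4a1, an orphan nuclear receptor, had the opposite one, with 4.54 ± 0.459 FPKM in control, 1.53 ± 0.328 after IL-4 (−1.52, limma adjusted p = 0.000414) and 9.35 ± 0.5004 after IL-6 (1.03, adjusted p = 0.00849). Myc rose 5.23-fold after IL-4 (2.38, limma adjusted p = 0.000227), and Zfp36l1, which destabilizes AU-rich transcripts, fell by 1.88 (adjusted p = 0.000796). Egr1 rose after IL-6 (1.38, limma adjusted p = 0.00336), as did Nr4a2, at 0.602 ± 0.0467 against 0.232 ± 0.0355 FPKM, in the fit without the filter, below which it lay (1.08, adjusted p = 0.0307).

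Genes known as AP-1 targets were called in both directions. Of 23 tested, 5 were higher and 8 lower after IL-4, 6 higher and 2 lower after IL-6, and 10 higher and 6 lower after IL-6 than after IL-4. Over all genes the shares called higher and lower were 5.02% and 8.89%, 3.49% and 1.89%, and 13.6% and 6.82%. The matrix metalloproteinases were on both sides. Mmp12, the macrophage elastase, had 116 ± 31.96 FPKM in control, 1277 ± 162 after IL-4 (3.48, limma adjusted p = 1.42e-05) and 19.6 ± 1.63 after IL-6 (−2.53, adjusted p = 0.000267). Mmp14, a membrane-bound collagenase, had 27.8 ± 3.61 in control, 2.10 ± 0.461 after IL-4 (−3.68, limma adjusted p = 6.06e-06) and 134 ± 6.36 after IL-6 (2.27, adjusted p = 0.000241). Mmp13, an interstitial collagenase, rose 45.7-fold after IL-4 (5.49, limma adjusted p = 2.69e-06) and had a value of 0.48 after IL-6 (adjusted p = 0.250).

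Of the cytokine and chemokine targets, Il1b, Tnf and Cxcl2 were called higher after IL-6, and Il6, Ccl2, Ccl3 and Ccl4 were not called. Il1b, the interleukin-1 beta gene, had 3.76, 3.74 and 2.14 FPKM in control, 0.767, 1.19 and 1.10 after IL-4 and 65.6, 69.5 and 79.6 after IL-6, a log2 fold change of 4.48 after IL-6 (limma adjusted p = 4.98e-05). Cxcl2, a neutrophil chemokine, rose 12.5-fold after IL-6 (3.57, limma adjusted p = 1.92e-05), and Spp1 (osteopontin) fell by 2.69 after IL-4 (adjusted p = 4.02e-05). Plau (urokinase) fell by 1.94 after IL-6 (limma adjusted p = 0.0157). Of the granulocyte markers, 7 of 7 were called higher after IL-6 than after IL-4, where 13.6% of all genes were, and 0 were called after IL-6 against control. They summed to 2040 to 3540 FPKM in control, 783 to 1250 after IL-4 and 3600 to 4840 after IL-6, most of it S100a8 and Ngp. After IL-6, Ly6g, Mpo, Elane, Camp and Ngp overlapped control, while Ltf and S100a8 were above it. The part of these markers in the target values was not tested.

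**Figure D5:**
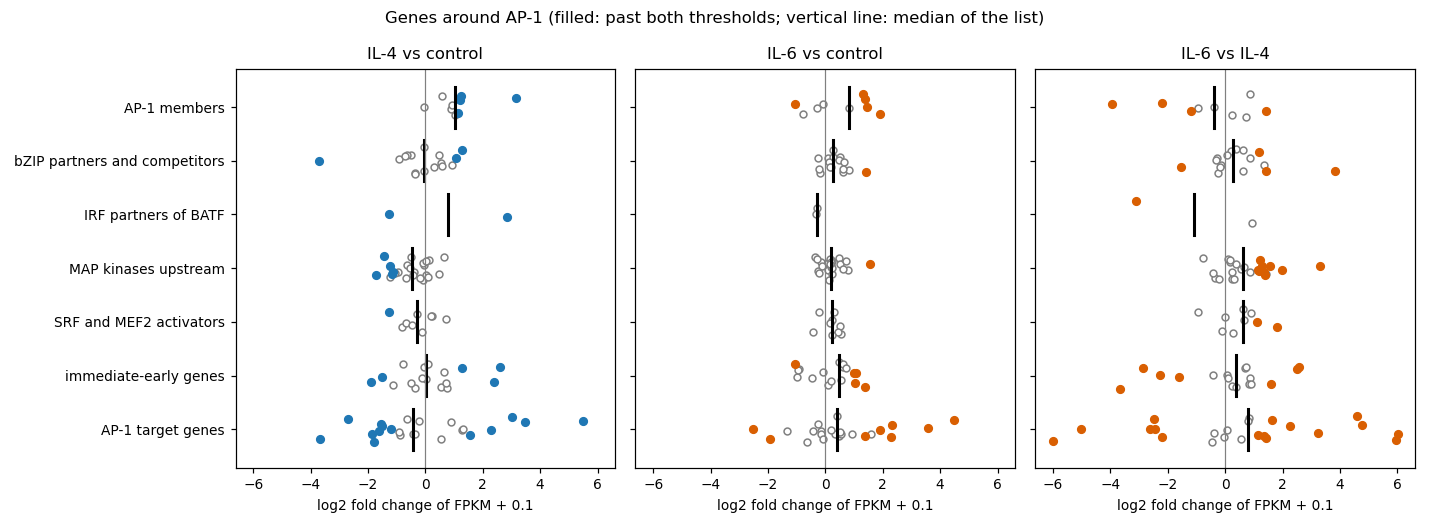
Log2 fold change (x axis, on the log2(FPKM + 0.1) scale) of every tested gene of the AP-1 members and of the 6 lists (rows) in the 3 comparisons; filled points passed both thresholds and vertical lines are list medians. The target genes have 10 calls on the right and 6 on the left for IL-6 against IL-4, and the MAP kinases have 9 on the right and none on the left.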

How the data were processed

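The authors deposited a table of FPKM. Submitters' processing notes name STAR 2.4.2a, Cufflinks 2.2.1 and GRCm38, and the study's methods the GENCODE M5 annotation; libraries came from a stranded poly(A) kit. Of 53379 gene identifiers, 50604 matched GENCODE M21 with their version (94.8%), which gave symbols, exon lengths and gene coordinates. Of 109681 values that correspond to fewer than 200 fragments, 100.0% were whole fragments within 0.05, so fragments were recovered; which program made the table is not settled. For Fosl1, whose identifier has another version, the length of 1707 bases that makes all values whole was used.

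FPKM were tested as log2(FPKM + 0.1) with limma 3.58.1 (R 4.3.3; trend and robust options, all 9 libraries, Benjamini-Hochberg adjustment), for genes with a mean of at least 0.5. Adjusted p-values are from this test unless another is named, and Fosb, Nr4a2 and markers below the filter are from the same fit without the filter. The fit was tested on simulated data. These were drawn without an outlying library and without a difference between the library sets, so the test does not cover those features. Errors are SD over 3 libraries, and folds are ratios of mean FPKM.

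The members and lists were chosen with earlier results of these data known. Named genes are all members, 2 rises and 2 falls per list and comparison with the largest change among called genes, the treatment checks, and the 3 genes most like each of the 3 members with the largest gap between group means. The column headers and the series record give the mice, which pairs the libraries. Deviations of same-numbered libraries correlated over genes by 0.521, −0.415 and 0.0777 between IL-4 and control, 0.408, 0.201 and 0.166 between IL-6 and control, and 0.281, −0.0612 and 0.153 between IL-6 and IL-4. Differently numbered libraries gave −0.593 to 0.584, −0.341 to 0.1765 and −0.282 to 0.159. The 0.584 was between IL-4 #3 and control #2. These values do not single out the same-numbered libraries, so the pairing and the ratios for each mouse rest on the labels. Alternatives were another pseudocount (1 or 0.01), filter (none or a mean of 5), scaling (median ratio or quantile), the groups compared alone, the mouse as a block, no variance trend, the adjusted p alone, the library set as a term, removal of length and GC trends, voom, and leaving out each library. Fold changes of the authors are not in the table, and proteins are not shown here.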

Additional observations from a re-analysis of the deposited data

How the results depend on the processing

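Of the AP-1 genes, 4 were called with IL-4 against control, and 3 to 6 were called under the other settings apart from an adjusted p alone (7) and the set of libraries as a term (1, Batf3). With IL-6 against control 5 were called, and 1 (Atf3) with the set as a term. Over all 12824 tested genes, the set as a term took the calls against control from 1784 to 1111 with IL-4 and from 690 to 187 with IL-6. The term is estimated from IL-4 #1 against the other IL-4 libraries, the outlying IL-4 #3 among them. Leaving out 1 library gave 3 to 5 with IL-4 and 2 to 5 with IL-6, the lowest without control #3 (Fos and Junb) and 3 (Atf3, Fos and Junb) without IL-6 #2 or IL-6 #3. Over all tested genes, leaving out 1 library gave 1450 to 2150 calls with IL-4 and 387 to 1001 with IL-6. The IL-6 calls were 387 without control #3, 424 without IL-6 #2 and 408 without IL-6 #3. For IL-6 against IL-4 the count was 4 to 5 with a library left out and 4 to 6 under the other settings. On the lists around AP-1, 15 genes were called with IL-6 against control, 4 with the set as a term and 9 to 17 with a library left out, the lowest without control #3. With the set as a term, 2 values for IL-6 against control reversed, Fosl1 at −0.18 and Irf8 at 0.13, neither of them called. The cause of these changes was not tested, beyond the fewer libraries or the added term. With the mouse number as a block, which pairs the libraries, 3, 5 and 4 AP-1 genes and 29, 14 and 39 list genes were called, and of the AP-1 genes the block changed only the call of Fosl1 with IL-4 (adjusted p = 0.0856). Low counts limit Fosb and Fosl1.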
